A study of Mus musculus with 8 samples.

Results

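The HoxD cluster genes are the 9 mouse genes Hoxd1, Hoxd3, Hoxd4, Hoxd8, Hoxd9, Hoxd10, Hoxd11, Hoxd12 and Hoxd13. They were taken by their symbols from the tables, which list 24318 symbols in all, and each symbol was found. In the mm9 coordinates of the tables they lie on chromosome 2 between 74506367 and 74603199, a stretch of 96.833 kb, in the order Hoxd13, Hoxd12, Hoxd11, Hoxd10, Hoxd9, Hoxd8, Hoxd3, Hoxd4 and Hoxd1. Poly(A) RNA was sequenced from an established mouse line, E14 embryonic stem cells (ESC), and from their derived neural progenitor cells (NPC), with wild-type Wdr68 or labelled as Wdr68 knockout. Wdr68, listed as Dcaf7 in the tables, encodes a WD40-repeat scaffold protein.

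The 4 groups were Wdr68 KO-NPC, E14-NPC, Wdr68 KO-ESC and E14-ESC, with 2 libraries in each. The ESC of both genotypes were grown in serum medium with LIF and inhibitors of Mek and GSK3, on mouse embryonic fibroblast feeders or on gelatin. The NPC of both genotypes were made without LIF or the inhibitors from embryoid bodies, which spent 2 days in hanging drops and 2 in suspension before retinoic acid was given for 4 days. The labels give neither the kind of Wdr68 mutation nor the number of knockout clones. They also do not say whether duplicates were separate cultures, so a p-value here reflects the spread among libraries that may be technical duplicates.

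Hox genes encode homeodomain transcription factors that give cells their position along the body axis. Within a cluster, genes at the 3′ end (low group numbers, here Hoxd1, Hoxd3 and Hoxd4) are switched on earlier and farther forward in the embryo than genes at the 5′ end (high group numbers, up to Hoxd13), an order known as collinearity. In stem cells the clusters are covered by Polycomb repressive marks, and retinoic acid, acting through its nuclear receptors, opens them from the 3′ end during neural differentiation in culture. The 5′ HoxD genes are best known for patterning limbs, digits and the genital region.

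Levels are FPKM, the fragments of a gene divided by its transcript length and by the mapped fragments of its library, so that genes of different length can be compared. Changes are differences of mean log2(FPKM + 1) with their standard error (SE), from limma fitted to all 8 libraries and 13318 genes, and a gene was called at a Benjamini-Hochberg adjusted p under 0.05. Adding 1 makes the change of a gene with low FPKM smaller on this scale than in level. The tables implied 5996677 to 7942644 fragments per library. Dcaf7 was at 8.36 and 8.99 FPKM in KO-NPC, against 27.2 and 29.6 FPKM in E14-NPC, and at 2.80 and 2.26 FPKM in KO-ESC, against 12.4 and 14.2 FPKM in E14-ESC. Its RNA was lower in the knockout at both stages and was not absent (log2 change -1.60 ± 0.12 in NPC and -2.02 ± 0.12 in ESC, limma adjusted p = 1.26e-04 and 0.0011).

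The labelled cell types were checked against marker genes. Over 12 pluripotency genes, Nanog and Pou5f1 among them, the summed level was 4177 and 4459 FPKM in KO-ESC, 3887 and 3984 FPKM in E14-ESC, and 8.34 to 15.5 FPKM in the 4 NPC libraries. Over 12 neural progenitor genes it was 47.6 and 51.5 FPKM in KO-NPC, against 300 and 304 FPKM in E14-NPC. The KO-NPC sum lay below the ESC libraries as well, which had 87.8 to 107 FPKM, most of it Sox2. In KO-NPC, Nes kept a mean of 23.9 FPKM, against 30.0 FPKM in E14-NPC, while Sox1 was at 0.46, against 2.90 FPKM, and Hes5 at 0.46, against 16.7 FPKM. Olig2 was low in both, at 0 in KO-NPC and 0.398 ± 0.410 FPKM in E14-NPC (SD, n = 2 each). Summed levels of 12 lateral and limb mesoderm genes were 199 and 168 FPKM in KO-NPC, against 56.5 and 65.2 FPKM in E14-NPC. Those of 10 endothelial and blood genes, largely embryonic globins, were 866 and 1062 FPKM in KO-NPC, against 122 and 91.8 FPKM in E14-NPC. The KO-NPC libraries thus held less neural and more mesodermal and blood RNA than E14-NPC, and the part of this in the HoxD results was not tested. In bulk RNA, fewer cells that express a gene and less RNA per cell cannot be told apart.

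The 3′ HoxD genes were lower in Wdr68 knockout NPC than in wild-type NPC. Hoxd4 and Hoxd3, the most abundant HoxD RNAs of wild-type NPC, were about 7-fold lower in knockout NPC, Hoxd8 and Hoxd1 were lower by less than 2-fold, and Hoxd9 was not called. The summed level of the 9 genes was 26.3 ± 3.31 FPKM in KO-NPC and 120 ± 2.38 FPKM in E14-NPC (SD, n = 2 each), that is 22.0% of wild type. Of the 9 genes, 6 passed the filter on low values (2 or more libraries with an FPKM of 1 or higher). Of these, 4 were called lower, 0 higher and 2 neither way in KO-NPC, where 12.7% of all genes tested were called lower and 14.7% higher (27.4% either way). With limma, 4 were lower and 1 was higher at an unadjusted p under 0.05. No share over all genes is given at that threshold, so this count is a description. Over all genes the split of calls was 1962 higher and 1686 lower, and it turned to 1385 higher and 1965 lower with median-ratio scaling, while the HoxD count was again 4 lower and 0 higher. It was 3 lower and 1 higher with quantile normalization, where Hoxd1 was lost and Hoxd9 called higher, and 2 lower and 1 higher with a pseudocount of 0.1, where Hoxd1 and Hoxd8 were lost and Hoxd13 called higher. The median change of the 6 tested HoxD genes was -0.60, beside 0.05 over all genes.

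**Figure D1:**
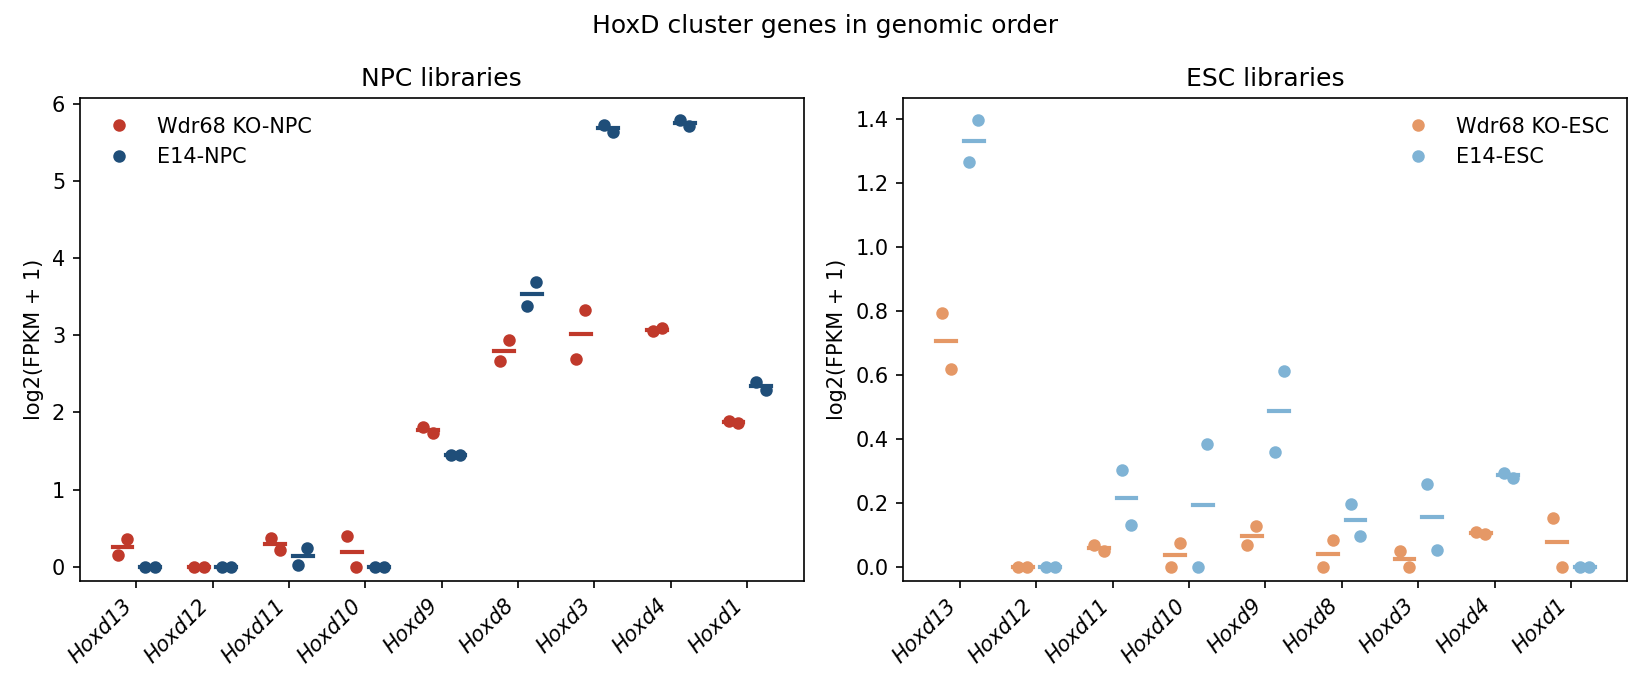
log2(FPKM + 1) of the 9 HoxD genes in genomic order, with NPC libraries on the left and ESC libraries on the right; points are single libraries, bars are group means, and the vertical scales of the panels differ. In the NPC panel Hoxd3 and Hoxd4 stand apart, with 5.45 to 9.07 FPKM in the knockout and 48.8 to 54.1 FPKM in the wild type, and in the ESC panel Hoxd13 is the highest gene of both genotypes.

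Hoxd4, a 3′ gene with a role in the hindbrain and the neck vertebrae, was at 7.31 and 7.52 FPKM in KO-NPC, against 54.1 and 51.5 FPKM in E14-NPC. The libraries of each genotype lay close together and far from those of the other genotype. The mean was 14.05% of wild type, 7.12-fold lower, with a log2 change of -2.68 ± 0.10 (95% interval -2.92 to -2.43, limma adjusted p = 1.97e-05). These levels rested on 196 and 213 implied fragments in KO-NPC, against 1583 and 1098 in E14-NPC. The gene spans 74560035 to 74567216 on chromosome 2 (mm9).

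Hoxd3, which in mice shapes the first neck vertebrae, was at 5.45 and 9.07 FPKM in KO-NPC, against 51.8 and 48.8 FPKM in E14-NPC. The groups did not overlap, but neither did the deposited 95% intervals of the KO-NPC libraries, at 4.61 to 6.29 and 8.03 to 10.1 FPKM. The mean was 14.4% of wild type, 6.93-fold lower, and the log2 change was -2.67 ± 0.21 (limma adjusted p = 1.7e-04). In the tables the span of Hoxd3, 74550050 to 74586328, holds the whole of Hoxd4 on the same strand, so how the authors' estimate split shared reads between the pair is uncertain. The ratio of Hoxd3 to Hoxd4 FPKM was 0.746 and 1.21 in KO-NPC, against 0.958 and 0.948 in E14-NPC. Summed as a single gene, an alternative chosen after seeing the data, the pair was at 14.7 ± 2.71 FPKM in KO-NPC and 103 ± 3.98 FPKM in E14-NPC (SD, n = 2 each), and the call held (log2 change -2.74 ± 0.14, limma adjusted p = 3.87e-05).

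The stretches of 250 bases just before the RefSeq start sites (GRCm38.p6, plus strand) are shown for 4 genes that differed in these libraries: Hoxd4 and Hoxd3, whose RNA fell most, Hoxd9, which was not called, and Hoxd13, the highest HoxD gene of ESC. Capitals mark CG dinucleotides, which are dense in many promoters of developmental genes. They lie at chr2:74721728-74721977 for Hoxd4, chr2:74711743-74711992 for Hoxd3, chr2:74697513-74697762 for Hoxd9 and chr2:74667975-74668224 for Hoxd13, in a build other than that of the tables.
Hoxd4: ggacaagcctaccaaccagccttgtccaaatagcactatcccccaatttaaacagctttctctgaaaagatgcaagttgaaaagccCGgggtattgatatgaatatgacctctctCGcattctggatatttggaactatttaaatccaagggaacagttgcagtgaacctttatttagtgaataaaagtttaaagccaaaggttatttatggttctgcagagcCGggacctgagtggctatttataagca
Hoxd3: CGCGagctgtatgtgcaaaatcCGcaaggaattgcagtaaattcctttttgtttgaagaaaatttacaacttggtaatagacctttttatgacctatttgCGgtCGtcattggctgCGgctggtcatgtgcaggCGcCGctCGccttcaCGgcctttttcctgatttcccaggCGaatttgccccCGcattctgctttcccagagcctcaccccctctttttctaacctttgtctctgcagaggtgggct
Hoxd9: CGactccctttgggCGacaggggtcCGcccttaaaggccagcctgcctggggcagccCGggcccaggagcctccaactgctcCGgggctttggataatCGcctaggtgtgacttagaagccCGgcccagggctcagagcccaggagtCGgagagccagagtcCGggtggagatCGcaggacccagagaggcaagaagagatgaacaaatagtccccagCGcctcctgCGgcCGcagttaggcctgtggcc
Hoxd13: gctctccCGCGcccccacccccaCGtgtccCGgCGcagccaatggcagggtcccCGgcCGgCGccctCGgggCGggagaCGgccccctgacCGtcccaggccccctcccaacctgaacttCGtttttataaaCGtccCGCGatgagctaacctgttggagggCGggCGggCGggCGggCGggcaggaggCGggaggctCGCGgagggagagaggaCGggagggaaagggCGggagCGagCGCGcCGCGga

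The Hoxd4 stretch, which lies inside the span of Hoxd3, is poor in CG, with 3 CG dinucleotides against a median of 6 over 32851 promoter stretches of this length. The Hoxd3 stretch has 12, the Hoxd9 stretch 13 and the Hoxd13 stretch 31, more than 94.8% of the promoters. Of the others, Hoxd8 had 6, Hoxd12 10, Hoxd10 20, Hoxd1 24, and the 2 start sites of Hoxd11 had 2 and 20. AGGTCA, the half-site of retinoic acid receptors, occurs on either strand in 14.02% of all promoters and has 1 match each for Hoxd4, Hoxd3, Hoxd8 and Hoxd10. TTTATG, a core of Cdx sites, occurs in 10.8% and has 1 match each for Hoxd4, Hoxd3 and 1 of the Hoxd11 start sites. In Hoxd3 these motifs overlap (tttatgacct). TATAAA occurs in 12.4% of promoters, with 1 match for Hoxd4 and 2 overlapping matches on opposite strands for Hoxd13, and TGATTNAT, a Pbx-Hox site, in 2.82%, with 1 match at the other Hoxd11 start site. The motifs were chosen after the values were seen, and a match describes letters and shows no binding.

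Hoxd1 is the most 3′ gene and is known in mice from pain-sensing sensory neurons. It was at 2.70 and 2.62 FPKM in KO-NPC, against 4.27 and 3.90 FPKM in E14-NPC. The groups did not overlap, and the mean was 1.53-fold lower (log2 change -0.47 ± 0.11, limma adjusted p = 0.0219). This call was lost without any single one of the 4 NPC libraries, with adjusted p between 0.0587 and 0.0980. It was also lost with a pseudocount of 0.1 (0.312), with quantile normalization (0.0732) and in a fit of the NPC groups alone (0.0551).

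Hoxd8, a mid-cluster gene of the trunk, was at 5.32 and 6.67 FPKM in KO-NPC, against 9.39 and 11.9 FPKM in E14-NPC. Each KO-NPC library was below each E14-NPC library, with a mean 1.77-fold lower (log2 change -0.73 ± 0.16, limma adjusted p = 0.0135). The call was lost without the second E14-NPC library (adjusted p = 0.0775), without the first KO-NPC library (0.0776) and with a pseudocount of 0.1 (0.131).

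Hoxd9, which takes part in patterning the forelimb and the lower spine in mice, was at 2.50 and 2.34 FPKM in KO-NPC, against 1.74 and 1.73 FPKM in E14-NPC. The KO-NPC libraries were the higher ones, at 139% of wild type in the mean. The log2 change of 0.32 ± 0.13, with a 95% interval of 0.02 to 0.62, was not called (limma adjusted p = 0.105), although it was with quantile normalization (0.0438). About 54 fragments stood behind each KO-NPC value (53.9 and 53.9), against 40.0 and 30.0 in E14-NPC, and the deposited intervals overlapped, as for the first libraries with 1.82 to 3.18 FPKM in KO-NPC and 1.19 to 2.29 FPKM in E14-NPC.

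The genes on the 5′ side of Hoxd9 did not exceed 0.314 FPKM in NPC. Hoxd13, a gene of digits and the genital bud, was at 0.113 and 0.283 FPKM in KO-NPC (3 and 8 implied fragments) and was listed at 0 in both E14-NPC libraries. The change on the log2 scale, 0.26 ± 0.13, was not called (limma adjusted p = 0.186), but it was with a pseudocount of 0.1 (0.0270), since the size of a change from 0 depends on the pseudocount. Hoxd11, at 0.292 and 0.164 FPKM in KO-NPC against 0.0162 and 0.188 FPKM in E14-NPC, overlapped between the genotypes. Hoxd10 was at 0.314 and 0 FPKM in KO-NPC and at 0 in both E14-NPC libraries. Hoxd12 was listed at 0 in all 8 libraries. Hoxd10, Hoxd11 and Hoxd12, which act in lumbar motor neurons, kidney and limb, did not pass the filter and were not tested.

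As the 3′ pair was lower and Hoxd9 was not, the make-up of HoxD RNA differed between the genotypes. Hoxd3 and Hoxd4 together made up 55.5 ± 3.33% of the summed HoxD FPKM in KO-NPC and 86.2 ± 1.62% in E14-NPC (SD, n = 2 each). Hoxd8 made up 22.7 ± 0.764% in KO-NPC and 8.90 ± 1.64% in E14-NPC, and Hoxd1 10.2 ± 1.48% and 3.41 ± 0.148% in the same order. Hoxd9 made up 9.27 ± 1.59% in KO-NPC and 1.45 ± 0.0266% in E14-NPC. For each of these shares the libraries of the genotypes did not overlap. Shares of a sum depend on each other, so they restate the levels above and were not tested.

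**Figure D2:**
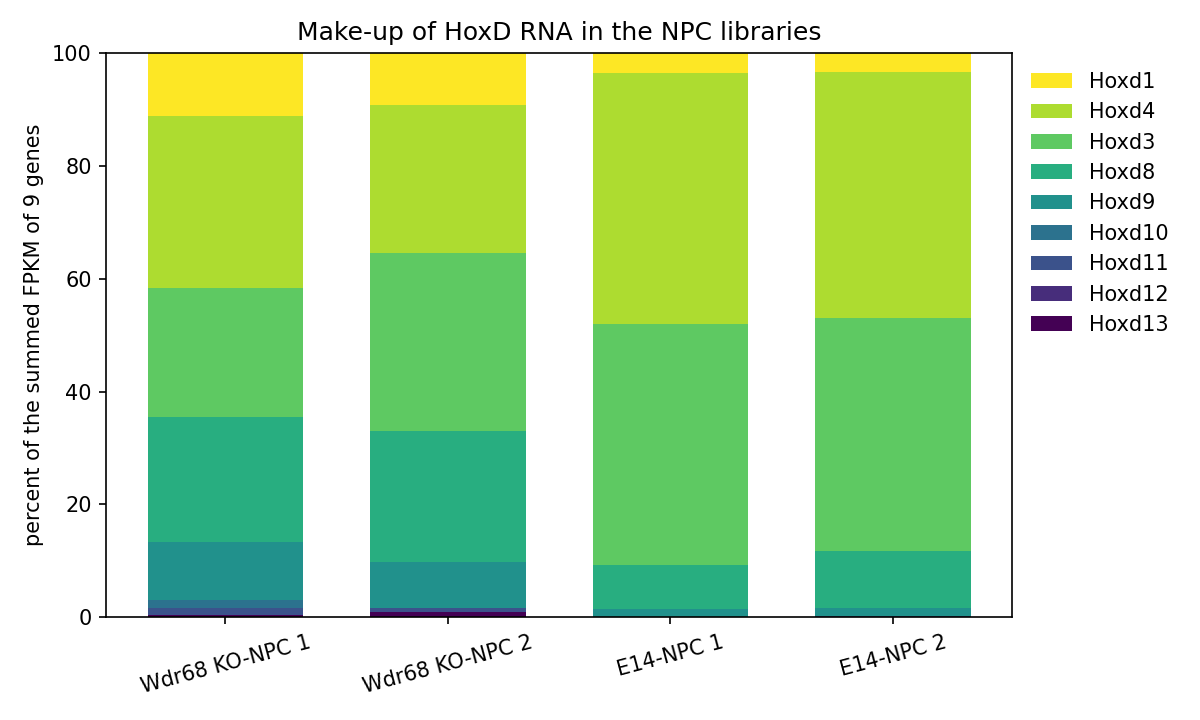
Share of each HoxD gene in the summed FPKM of the 9 genes, in percent, with 1 bar per NPC library. Hoxd3 and Hoxd4 fill 55.5% of the KO-NPC bars and 86.2% of the E14-NPC bars in the mean.

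Haglr, a non-coding neighbour of the 3′ genes, was lower too, and the tested flanking genes were not called. Within 500 kb of the cluster the tables list 8 further entries, of which 5 passed the filter. Of these 5, 3 were called lower in KO-NPC and 0 higher, and the 3 lie inside the cluster (12.7% of all genes were called lower). Of the 3, Hoxd3os1 and LOC102634401 passed the filter through E14-NPC alone, so they had to differ, and their values are a description. Hoxd3os1, an antisense RNA over the start of Hoxd3, was at 0.146 and 0 FPKM in KO-NPC, against 4.77 and 9.11 FPKM in E14-NPC (log2 change -2.83 ± 0.24, limma adjusted p = 2.58e-04). Haglr, a long non-coding RNA that starts beside Hoxd1 on the opposite strand, was at 3.37 and 3.11 FPKM in KO-NPC, against 19.3 and 15.3 FPKM in E14-NPC (log2 change -2.10 ± 0.14, limma adjusted p = 8.59e-05). LOC102634401, a predicted gene inside Haglr's span, was at 0.125 and 0 FPKM in KO-NPC, against 2.33 and 1.91 FPKM in E14-NPC (log2 change -1.55 ± 0.12, limma adjusted p = 1.65e-04). The kit marks strand, but the strand setting of the authors' estimate is not given in the sources used here, so reads of Hoxd3 and Hoxd3os1, and of Haglr and LOC102634401, may not be fully separated.

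Outside the cluster, Lnp and Mtx2, the nearest tested genes on its 5′ and 3′ flank, were not called. Lnp was at 7.05 and 7.28 FPKM in KO-NPC, against 7.34 and 6.34 FPKM in E14-NPC (log2 change 0.06 ± 0.11, 95% interval -0.20 to 0.33). Mtx2 was at 64.9 and 57.3 FPKM in KO-NPC, against 62.1 and 71.6 FPKM in E14-NPC (log2 change -0.13 ± 0.11, 95% interval -0.38 to 0.13). For both genes the genotypes overlapped, and neither interval holds the change of Hoxd4. Evx2, which lies between Lnp and Hoxd13, was listed at 0 in all 8 libraries and was not tested. Mir10b, a microRNA entry of 68 bases, was also listed at 0 in all 8 libraries, but poly(A) libraries cannot show whether the microRNA was absent. The entry 4930441J16Rik was listed above 0 in 1 KO-NPC library, at 0.276 FPKM.

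**Figure D3:**
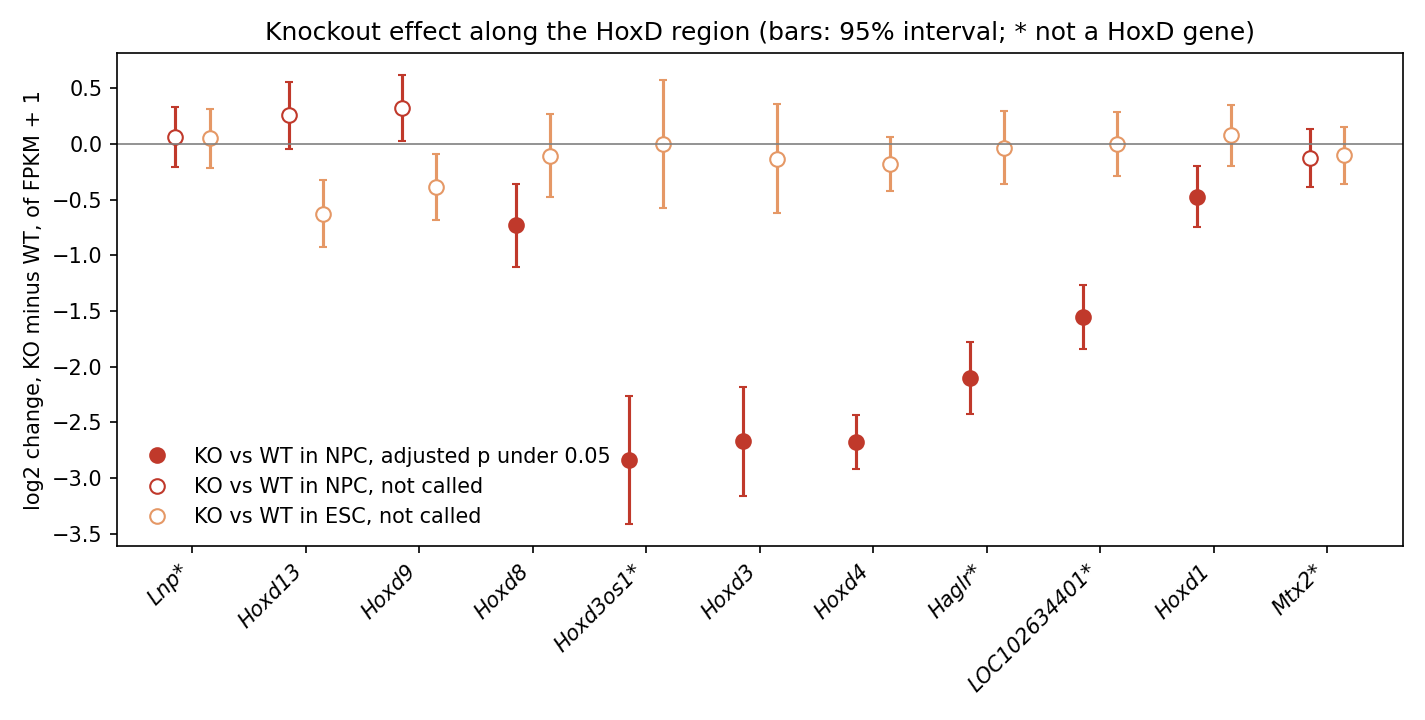
log2 change of FPKM + 1, knockout minus wild type, for the 6 tested HoxD genes and 5 tested neighbours in genomic order (not to scale); bars are 95% intervals and filled points are called at adjusted p under 0.05. In NPC the filled points run from Hoxd8 to Hoxd1, with the lowest values from Hoxd3os1 to Hoxd4 (-2.83 to -2.67). Of these, Hoxd3os1 and LOC102634401 passed the filter through E14-NPC alone and had to differ. Lnp and Mtx2 at the ends have intervals that include 0, and in ESC no point is filled.

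In ESC, where the cluster was nearly silent, no HoxD gene was called between the genotypes. Of the 6 genes tested, 0 were called in either direction by limma, where 0.12% of all genes were called lower and 0.128% higher (0.248%, or 33 genes, in all). The count was 0 under each alternative run. These counts do not show equal levels. The tested genes other than Hoxd13 passed the filter through NPC libraries alone, and at their ESC levels log2(FPKM + 1) leaves little room for a call. The fit of the ESC groups alone tested 1 HoxD gene. At an unadjusted p under 0.05, 2 genes were lower, Hoxd13 and Hoxd9, a description without a share over all genes beside it. Hoxd13 was at 0.734 and 0.534 FPKM in KO-ESC, against 1.41 and 1.63 FPKM in E14-ESC. These rested on 18 and 14 implied fragments in KO-ESC, against 30 and 36.2 in E14-ESC, and the genotypes did not overlap. The log2 change was -0.63 ± 0.13 (95% interval -0.93 to -0.32, limma adjusted p = 0.162), and Hoxd13 passed the filter only through E14-ESC. Hoxd9 was at 0.0490 and 0.0918 FPKM in KO-ESC, against 0.282 and 0.530 FPKM in E14-ESC (log2 change -0.39 ± 0.13, limma adjusted p = 0.296).

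The remaining members stayed at or below 0.305 FPKM in each ESC library. Hoxd4 was at 0.0790 and 0.0739 FPKM in KO-ESC, against 0.227 and 0.213 FPKM in E14-ESC. Hoxd3 was at 0.0345 and 0 FPKM in KO-ESC, against 0.198 and 0.0373 FPKM in E14-ESC. Hoxd8 was at 0 and 0.0591 FPKM in KO-ESC, against 0.145 and 0.0682 FPKM in E14-ESC. These levels rest on few fragments, and the limma adjusted p of these 3 genes was between 0.514 and 0.856. Hoxd1 was at 0.112 and 0 FPKM in KO-ESC and listed at 0 in both E14-ESC libraries. Hoxd11 was at 0.0485 and 0.0358 FPKM in KO-ESC, against 0.232 and 0.0954 FPKM in E14-ESC, and Hoxd10 at 0 and 0.0529 FPKM in KO-ESC, against 0 and 0.305 FPKM in E14-ESC. Summed over the 9 genes, the level was 0.953 ± 0.148 FPKM in KO-ESC and 2.69 ± 0.278 FPKM in E14-ESC (SD, n = 2 each), of which Hoxd13 made up 66.2 ± 4.53% and 56.5 ± 0.115% in the same order.

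Hoxd13 was the highest HoxD gene of ESC and low in NPC in both genotypes, and Hoxd3, Hoxd4 and Hoxd8 led in NPC. In E14-NPC 5 of the 6 tested genes rose against E14-ESC and Hoxd13 fell, where 41.6% of all genes were called higher and 31.1% lower (72.6% either way). In KO-NPC the same 5 rose against KO-ESC and Hoxd13 fell, with 41.6% of all genes called higher and 28.8% lower (70.3% either way). Hoxd13 passed the filter through ESC libraries alone and the other 5 through NPC libraries alone, and such genes had to differ, so these counts describe the cluster and are no support for it. The median of all genes moved by 0.15 in wild type and 0.17 in knockout, and by -0.01 and 0.00 with quantile normalization, so changes are given after that median was subtracted.

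Hoxd3 rose by 2.81 in knockout and 5.38 in wild type beyond the median of all genes, and Hoxd4 by 2.79 and 5.31. Hoxd8 rose by 2.58 in knockout and 3.24 in wild type, and Hoxd1 by 1.62 and 2.198. The order was the reverse for Hoxd9, which rose by 1.50 in knockout and 0.82 in wild type. Hoxd13 fell by 0.62 in knockout and 1.48 in wild type on this scale, from levels under 2 FPKM. Its call in the knockout (limma adjusted p = 0.0157) was lost without the first KO-ESC library or the first KO-NPC library, with adjusted p up to 0.0965. The largest limma adjusted p among the other genes in these contrasts was 3.14e-04, for Hoxd9 in wild type. With quantile normalization the change was 0.36 for Hoxd9 in wild type and -0.80 for Hoxd13 in knockout, both still called. With a pseudocount of 0.1, which weighs low levels more, the changes before subtraction were 5.94 in knockout for Hoxd3, 5.41 for Hoxd4 and 5.59 for Hoxd8, against 7.96 in wild type for Hoxd3, 7.37 for Hoxd4 and 5.71 for Hoxd8.

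In NPC the order of levels along the cluster was not strictly that of position. In E14-NPC, Hoxd4 and Hoxd3 were highest and did not differ beyond their spread, followed by Hoxd8, Hoxd1 and Hoxd9, whose libraries did not overlap. In KO-NPC, Hoxd4, Hoxd3 and Hoxd8 formed a top group in which Hoxd3 overlapped the other two and Hoxd8 lay below Hoxd4, followed by Hoxd1 and Hoxd9, which lay close together and did not overlap. In both genotypes Hoxd1, the most 3′ gene, was below Hoxd3, Hoxd4 and Hoxd8. In ESC the order was led by Hoxd13 in both genotypes, and the order of the genes below it rested on a few fragments each.

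The knockout effect was called different between the stages for 4 of the 6 tested HoxD genes. One of the 4, Hoxd13, passed the filter through E14-ESC alone, where it was highest, so its call is a description and leaves 3 of 5. In the difference between the knockout effect in NPC and that in ESC, 8.39% of all genes were called lower and 8.41% higher (16.8% either way). Over all genes this was 1120 higher and 1117 lower, and 816 higher and 1259 lower with median-ratio scaling. Hoxd4 (-2.50 ± 0.14, limma adjusted p = 2.24e-04) and Hoxd3 (-2.54 ± 0.29, adjusted p = 0.0021) had the more negative effect in NPC, and in ESC they were below 0.3 FPKM in both genotypes. Hoxd13 (0.88 ± 0.18, limma adjusted p = 0.0183) and Hoxd9 (0.71 ± 0.18, limma adjusted p = 0.0362) went the other way. Both had a lower mean level in KO-ESC than in E14-ESC and a higher one in KO-NPC than in E14-NPC. With log2(FPKM + 1) and no scaling, neither gene was called within either stage. The Hoxd13 call held in 2 of 6 fits that left out a library and could still test it, and the Hoxd9 call in 1 of 8, against 8 of 8 for Hoxd3 and for Hoxd4. With a pseudocount of 0.1 the Hoxd3 call was lost (-2.02, limma adjusted p = 0.0740), and that of Hoxd4 was kept (-1.96, limma adjusted p = 0.0062). As a share of wild type, Hoxd3 stood at 14.7% in ESC and 14.4% in NPC, and Hoxd4 at 34.7% and 14.05%. The ESC shares rest on few fragments. At such levels log2(FPKM + 1) has little room to fall, so the Hoxd3 and Hoxd4 differences largely restate their changes in NPC. Hoxd1 (-0.55 ± 0.16, limma adjusted p = 0.0614) and Hoxd8 (-0.63 ± 0.22, limma adjusted p = 0.101) were not called, although Hoxd1 was with median-ratio scaling (0.0454) and without the variance trend (0.0330).

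Genes of the same group number in other clusters descend from a common ancestral gene and are set beside their HoxD counterpart here. Of the 25 tested genes of the HoxA, HoxB and HoxC clusters, 16 were lower in KO-NPC, 4 higher and 5 not called, with a median change of -1.01. Over all genes tested, 12.7% were called lower and 14.7% higher. The summed level in KO-NPC was 93.4% of wild type for HoxA, 39.5% for HoxB and 61.1% for HoxC, beside 22.0% for HoxD. By cluster, 5 of 8 tested genes were called lower in HoxA, 7 of 10 in HoxB and 4 of 7 in HoxC, and 4 of 6 in HoxD. Of those called lower, Hoxa9 and Hoxc9 passed the filter through E14-NPC alone and had to differ. Differences between genes were not tested.

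In group 4, Hoxd4 stood at 14.05% of wild type in KO-NPC, Hoxc4 at 49.0%, Hoxb4 at 75.9% and Hoxa4 at 153%. The first 3 were called lower and Hoxa4 higher (133 ± 13.3 FPKM in KO-NPC and 87.5 ± 2.34 FPKM in E14-NPC, SD, n = 2 each). In group 3, Hoxd3 stood at 14.4%, Hoxb3 at 48.9% and Hoxa3 at 64.2%, and each was called lower. In group 1, Hoxd1 stood at 65.2% and was called lower, and Hoxb1 stood at 170% and was called higher. In group 8, Hoxb8 stood at 20.5%, Hoxc8 at 46.8% and Hoxd8 at 56.4%, each lower.

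In group 9, Hoxb9 was called lower and Hoxd9 was not called. Hoxb9 was at 9.60 and 18.6 FPKM in KO-NPC, against 192 and 194 FPKM in E14-NPC. That is 7.30% of wild type, and Hoxd9 stood at 139%. Hoxa9 stood at 9.64% and Hoxc9 at 14.7%, given as a description because of the filter. In group 13, Hoxb13 was at 26.8 and 28.4 FPKM in KO-NPC, against 3.70 and 3.06 FPKM in E14-NPC, and was called higher (log2 change 2.71 ± 0.29, limma adjusted p = 6.62e-04). Hoxd13 was below 0.3 FPKM in each of these NPC libraries. Hoxa6, which has no HoxD counterpart, fell to 2.78 and 3.74 FPKM in KO-NPC, against 40.5 and 32.1 FPKM in E14-NPC.

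**Figure D4:**
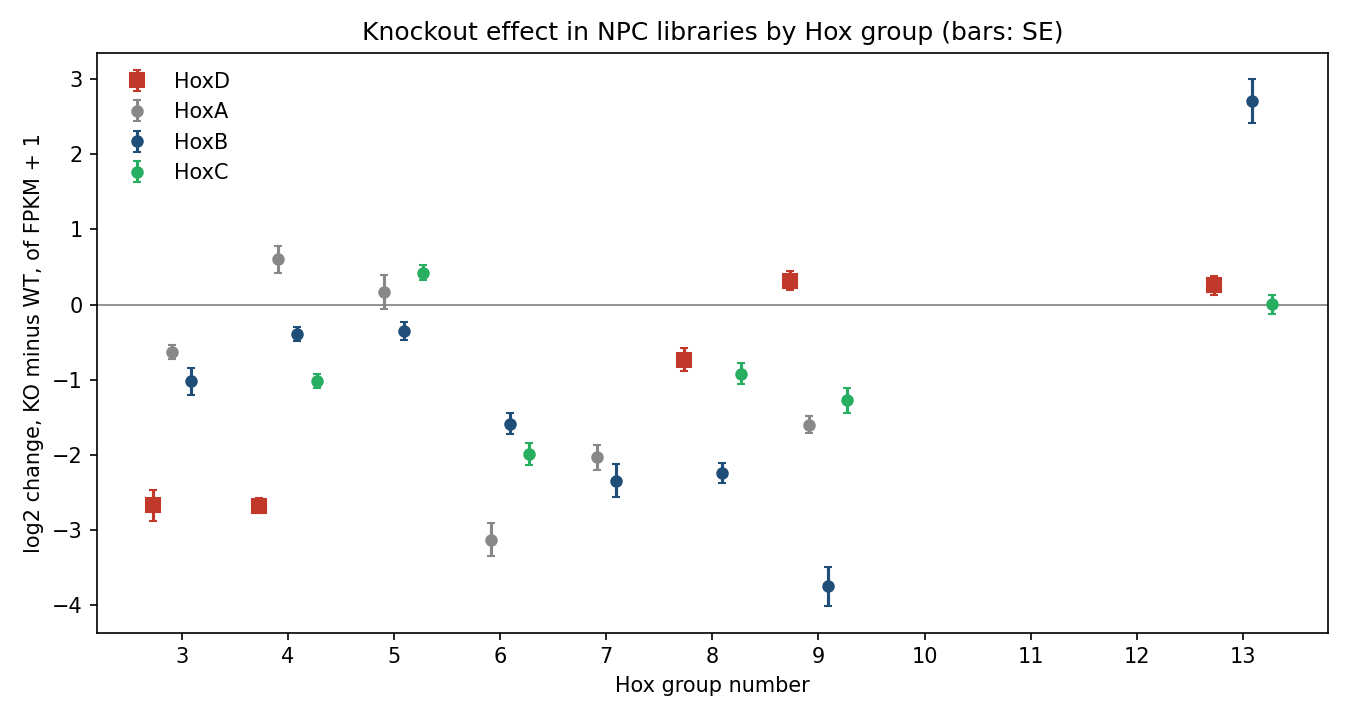
log2 change of FPKM + 1 in NPC, knockout minus wild type, for tested Hox genes of groups 3 to 13 listed above 0 in an NPC library, by group number; red squares are HoxD, circles the other clusters, bars are SE. In groups 3 and 4 the HoxD gene is the lowest (-2.67 and -2.68), and in group 9 it is the only one above 0 (0.32, not called, and -1.28 to -3.75 for the others, of which Hoxa9 and Hoxc9 passed the filter through E14-NPC alone).

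Genes of pathways that act on Hox genes or with Hox proteins were counted in KO-NPC against E14-NPC, where 12.7% of all genes were called lower and 14.7% higher (27.4% either way). Of 17 tested genes of retinoic acid supply, binding and response, 7 were lower, 3 higher and 7 not called (median change -0.28). Crabp2, a carrier that brings retinoic acid to its receptors, was at 39.2 ± 11.9 FPKM in KO-NPC and 224 ± 14.5 FPKM in E14-NPC (log2 change -2.52 ± 0.22). The related carrier Crabp1 (-2.38 ± 0.21) and Cyp26a1, which degrades retinoic acid and is itself induced by it (-2.01 ± 0.17), fell too. The 3 higher genes, named after their values were seen, were Aldh1a2 (1.71 ± 0.16), Tgm2 (1.08 ± 0.17) and Stra8 (0.70 ± 0.14). Of 9 TALE homeodomain cofactors, which bind DNA with Hox proteins, 2 were lower, 0 higher and 7 not called (median change 0.01). The 2 were Pbx3 (-1.10 ± 0.17) and Pbx4 (-0.89 ± 0.16). Of 27 Polycomb and trithorax genes, 4 were lower, 4 higher and 19 not called (median change 0.01), a share near that over all genes, with Auts2 (-0.77 ± 0.12), Rybp (0.72 ± 0.08) and Cbx7 (-0.55 ± 0.12) changed most. Of 6 regulators of the posterior axis, the ligand Wnt5a was higher (1.89 ± 0.14), the ligand Gdf11 lower (-0.61 ± 0.14) and 4 not called (median change -5.94e-05). The limma adjusted p of the genes named in these sentences was between 1.32e-04 and 0.0168.

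The cell type lists moved in the same libraries as the HoxD genes, and their part in the HoxD changes was not tested. Beside the counts below, 12.7% of all genes tested were called lower in KO-NPC and 14.7% higher. Of 11 tested neural progenitor genes, 10 were lower and 0 higher, led by Fabp7 (-4.70 ± 0.32), Hes5 (-3.58 ± 0.16) and Sox2 (-3.51 ± 0.20). Of 9 neuronal genes, 8 were lower, led by Tubb3 (-4.58 ± 0.20), Stmn2 (-4.49 ± 0.12) and Ina (-4.05 ± 0.17), and 1 was higher. Of 11 lateral and limb mesoderm genes, 7 were higher and 1 lower, with Foxf1 (3.69 ± 0.19), Gata4 (2.95 ± 0.24) and Tcf21 (2.34 ± 0.13) changed most. Of 9 endothelial and blood genes, 9 were higher, led by the embryonic globins Hba-x (3.31 ± 0.16), Hbb-bh1 (3.24 ± 0.36) and Hbb-y (3.03 ± 0.19). Of 5 paraxial mesoderm genes, Foxc2 (1.47 ± 0.19), Meox1 (0.93 ± 0.12) and Foxc1 (0.80, named after its value was seen) were higher, Uncx was lower (-2.52 ± 0.13) and 1 was not called. Of 10 feeder fibroblast genes, 6 were lower, among them Lum (-1.72 ± 0.20), Thy1 (-1.40 ± 0.11) and Postn (-1.32 ± 0.23), and 1 higher. Lum, Thy1 and Postn were at 0, 1.02 and 0 FPKM in E14-ESC, against 2.92, 1.79 and 2.99 FPKM in E14-NPC. The name of this list is thus no finding of feeder cells. Of 12 pluripotency genes, 3 were higher, Tdgf1 (0.62 ± 0.19) and Klf4 (0.60 ± 0.13) among them, and Esrrb was lower (-0.52 ± 0.10). The limma adjusted p of these genes was between 8.13e-06 and 0.0484. The genes that went against the rest of their list, named after their values were seen, were the neuronal Isl1 (1.98), the mesodermal Prrx1 (-0.62) and the fibroblast Pdgfra (1.20). Hes5, Uncx and Lum passed the filter through E14-NPC alone and had to differ, as did 1 more neural progenitor gene and 1 more fibroblast gene, and 1 mesoderm and 1 blood gene passed through KO-NPC alone. The median changes of these lists were -2.87, -3.43, 0.84, 1.75, 0.80, -0.63 and -0.00184, in the order given.

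The genes whose profile over the 8 libraries was nearest to each HoxD gene were found by scaling each gene to its highest library and averaging the absolute difference in percent points over the libraries. Hoxd3 was nearest to Hoxd4, at 1.02 percent points among 9225 genes. Hoxd4 was nearest to Snap25, a neuronal vesicle fusion protein, at 0.930 percent points, with Hoxd3 next among the Hox genes. Hoxd1 was nearest to Hoxa3, at 0.659 percent points. Hoxd8 was nearest to Cadm3, a neuronal adhesion protein (1.48), and to Hoxc4 among the Hox genes (3.19). Hoxd9 was nearest to Obsl1, a cytoskeletal linker protein (3.82), and to Hoxc5 (6.71), a gene that was higher in KO-NPC. Hoxd13 was nearest to Hormad1, a protein of meiotic chromosomes (6.77), while its nearest Hox gene, Hoxc12, was 17.2 percent points away. The profiles share their libraries, so these distances are descriptions.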

How the data were processed

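Poly(A) RNA was sequenced in 8 mouse libraries, 2 per group. Per the submitters' processing notes, the authors used TopHat2 2.1.1, Cufflinks 2.2.1 and mm9, and the deposited tables hold FPKM per gene with a 95% interval and no counts. Fragment numbers were inferred from the distance between FPKM and its upper bound. Below 5 fragments, 62.2% to 66.4% of them per library were whole within 0.05 (10% by chance). They cover counting error only, and no floor is given for a level of 0.

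Entries of a symbol were summed, and 12 symbols with a failed estimate were left out (24306 remained). log2(FPKM + 1) of the 13318 genes with 2 or more libraries at an FPKM of 1 or higher was fitted by group with limma 3.58.1 (R 4.3.3; trended variance, 4 residual degrees of freedom, two-sided tests), which was first tested on simulated data. The HoxD genes are named in every case, with called neighbours within 500 kb, up to 3 called genes per list with the largest change, and the nearest profile among genes of at least 5 FPKM. The members, the 12 other lists (other Hox genes, retinoic acid axis, TALE cofactors, Polycomb and trithorax, posterior axis, and 7 cell type lists) and the tests were chosen with earlier results of these data known. The alternatives tried were no filter, a minimum FPKM of 5, a pseudocount of 0.1, median-ratio and quantile scaling, no variance trend, fits of the compared groups alone, a replicate block and each library left out. Promoters are from RefSeq (GRCm38.p6), and all 9 genes matched. No replicate number is stated to mark a shared culture or day.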

Additional observations from a re-analysis of the deposited data

Results flagged for a closer look

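By a limma test of the difference itself, the knockout effect was called different between NPC and ESC for 4 of the 6 tested HoxD genes. Over all genes tested, 16.8% were called, 8.39% lower and 8.41% higher. The difference in log2 change was -2.50 for Hoxd4 and -2.54 for Hoxd3, whose levels in ESC were under 0.3 FPKM. From such levels this scale has little room to fall. As a share of wild type, Hoxd3 stood at 14.7% in ESC and 14.4% in NPC, and Hoxd4 at 34.7% and 14.05%, with few fragments in ESC. The difference was 0.88 for Hoxd13 and 0.71 for Hoxd9, each lower in KO-ESC than in E14-ESC and higher in KO-NPC than in E14-NPC. Hoxd13 rested on 3 and 8 implied fragments in KO-NPC and was listed at 0 in E14-NPC. It passed the filter through E14-ESC alone, and its call held in 2 of 6 fits that left out a library.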

How the results depend on the processing

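No direction of a called change reversed. Of the values for the changes of single genes under the alternatives, 341 kept their side of the threshold, 25 lost a call and 4 gained one. Leaving out 1 library at a time gave 2 to 3 HoxD genes called in KO-NPC against E14-NPC (4 with all libraries), 0 in ESC, 5 to 6 between the stages in each genotype and 2 to 3 for the difference between the knockout effects (4). Without the second E14-NPC or the first KO-NPC library, Hoxd3 and Hoxd4 were the 2 called. With an FPKM minimum of 5, which left 3 HoxD genes to test, 3 were called between the stages in each genotype and 2 for the difference. With all 8 libraries, 72.6% of all genes were called between the stages in wild type, 70.3% in knockout, and 16.8% for the difference. The HoxD genes passed the filter through 1 stage alone and had to differ between the stages, so those counts are descriptions. Without the first or the second E14-ESC library, Hoxd13 did not pass the filter and was not tested. A pseudocount of 0.1 ended the Hoxd3 call for that difference (-2.02, limma adjusted p = 0.0740). With quantile normalization, over the tested genes alone, summed HoxD levels were 22.2 FPKM in KO-NPC, 128 in E14-NPC, 1.79 in KO-ESC and 3.72 in E14-ESC. Same-numbered libraries deviated together by r = -0.05 to 0.18 over the 6 pairs of groups, so the numbers were not taken to pair samples. With the replicate number as a block, 4 genes were called in KO-NPC against E14-NPC, and 3 in place of 4 for the difference, where Hoxd9 was lost (limma adjusted p = 0.0527). Depth limits Hoxd10 to Hoxd13 in NPC and the ESC levels of most members.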
